A study of Mus musculus with 6 samples.

Results

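The genes described here are Nfe2l2, which encodes the transcription factor NRF2, 6 genes that NRF2 is known to control (Nqo1, Hmox1, Gclc, Gclm, Txnrd1 and Srxn1), the superoxide dismutases Sod1 and Sod2, and catalase (Cat). They were chosen by name, and all probes that match them were read, which gave 10 genes of the 25005 genes and transcripts tested. Their mRNA levels were read in quadriceps muscle from AR97Q males killed when 9 weeks old. AR97Q mice model SBMA (spinal and bulbar muscular atrophy) and carry a human androgen receptor transgene with an expanded CAG repeat on a C57BL/6J background. All mice of both groups carried the transgene. The exercise group (3 mice) had run in a forced running wheel during the weeks before, and the sedentary group (3 mice) had not. Wild-type mice were not analysed here, so the values compare exercise with no exercise in diseased muscle. RNA of each mouse was hybridized to 1 single-colour Agilent array.

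NRF2 is the main inducible regulator of antioxidant defence. In resting cells KEAP1, an adaptor of the CUL3 ubiquitin ligase, holds NRF2 and sends it to the proteasome, and oxidants or electrophiles block this, so that NRF2 pairs with a small MAF protein and binds the antioxidant response element of its target genes. Much of this control acts on the NRF2 protein, which arrays do not measure. The targets make glutathione, reduce thioredoxin and peroxiredoxins, break down haem and detoxify quinones. The superoxide dismutases turn superoxide into hydrogen peroxide, Sod1 mainly in the cytosol and Sod2 in the mitochondrial matrix, and catalase removes hydrogen peroxide in peroxisomes. Working muscle produces such oxidants, and training is known to change several of these enzymes.

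The core of the antioxidant response element is TGACNNNGC. RefSeq promoter windows (GRCm38.p6, from 250 bases before to 50 bases after a start site) were found for 8 of the 10 genes, with none for Hmox1 and Gclc. The core stood on either strand in 5 of the 10 windows of these 8 genes, 1 window each in 5 genes, and in 12.4% of all 32851 windows. The sites are shown because this element is the one through which NRF2 acts on its targets. Each is read from 5′ to 3′ along the strand on which the core runs, with the core in capitals and 10 bases on either side.
Nfe2l2, chr2:75704885-75704913, minus strand: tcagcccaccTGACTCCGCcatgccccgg
Gclm, chr3:122245413-122245441, minus strand: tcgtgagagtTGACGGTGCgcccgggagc
Txnrd1, chr10:82859104-82859132, minus strand: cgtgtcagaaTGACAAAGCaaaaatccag
Srxn1, chr2:152105542-152105570, minus strand: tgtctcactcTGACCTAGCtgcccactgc
Sod1, chr16:90220696-90220724, minus strand: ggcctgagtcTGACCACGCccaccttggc

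The core began 240 bases before the start site in Nfe2l2, 134 before it in Gclm, 92 before it in 1 of the 3 Txnrd1 windows, 56 before it in Sod1, and 29 bases after it in Srxn1. The 3 letters in its middle differed in all 5 sites. The windows of Nqo1, Sod2 and Cat did not hold the core. Bases outside the windows were not searched, so a site farther away would be missed. The 250 bases before the start site of Gclm and of Sod2 are given in full, in capitals where the core stands (in Gclm it runs on the other strand), because Sod2 was the gene of the 10 that passed the test below and Gclm is a classic NRF2 target. A match of letters is a description and not a measured binding site.
Gclm, chr3:122245307-122245556, plus strand: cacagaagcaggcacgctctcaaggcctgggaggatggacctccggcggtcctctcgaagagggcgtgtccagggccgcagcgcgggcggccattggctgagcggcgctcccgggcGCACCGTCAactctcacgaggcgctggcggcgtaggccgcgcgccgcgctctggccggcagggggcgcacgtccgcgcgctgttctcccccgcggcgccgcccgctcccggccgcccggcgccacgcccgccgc
Sod2, chr17:13007589-13007838, plus strand: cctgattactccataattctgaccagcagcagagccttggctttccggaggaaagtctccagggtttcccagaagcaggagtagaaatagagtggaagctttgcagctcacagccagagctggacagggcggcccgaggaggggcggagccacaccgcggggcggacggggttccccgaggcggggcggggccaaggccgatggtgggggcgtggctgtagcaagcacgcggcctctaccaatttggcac
Of these bases, 78.4% were G or C in Gclm and 63.6% in Sod2.

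Levels are given as log2 of the spot's processed signal minus the array's 75th percentile, so that 0 is a spot at that percentile. Such levels compare arrays for 1 probe and do not compare genes with each other. A difference is the mean of the exercise group minus the mean of the sedentary group on this log2 scale, and a gene was called changed at an adjusted p under 0.05 in limma over all genes tested. The 10 genes had 12 probes, all well above background on all 6 arrays. The 75th percentile itself was lower on the exercise arrays (251 to 257) than on the sedentary arrays (310 to 384). By their barcodes all arrays lay on 1 slide. A part of each barcode was read as the strip of the slide, which the labels do not name. By this reading the exercise arrays and sedentary mouse 1 lay on 1 strip and sedentary mice 2 and 3 on the other. Differences against sedentary mouse 1 alone are therefore also given where they bear on a result. All 6 skeletal muscle markers were well above background on every array, with a summed level of 11.82 to 12 in the exercise group and 10.77 to 11.26 in the sedentary group, and 5 of the 6 were called higher. Of 10 fast-twitch fibre genes, 9 were called higher in the exercise group. The share called higher over all genes tested was 11.5%. Myh4 and Tnnt3 stand in both of these lists. Of 8 slow-twitch fibre genes, 1 was called higher and 2 lower, and of 6 Schwann cell markers 1 was called lower. No marker of the other cell types was called. In whole muscle, fewer cells of a type and less RNA per cell cannot be told apart.

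Of the 10 genes, Sod2 rose in the exercise group and none of the others passed the test. Over all genes tested, 17.6% were called, 11.5% higher and 6.12% lower in the exercise group, so 1 call among 10 genes is no more than the share over all genes. At an unadjusted p under 0.05 in limma, 1 of the 10 was higher and 1 lower, against 5398 higher and 3851 lower of all 25005 genes tested. The median difference of the 10 genes was -0.09, against 0.03 for all genes tested, with 4 genes higher and 6 lower in mean. None of the 10 reached the study's threshold for differentially expressed genes, which also asks for a log2 difference of 1 or more in size and which 2.78% of all genes tested met. Without scaling between arrays Nfe2l2, Nqo1, Gclc, Txnrd1 and Cat were called lower, and with spike-in scaling Srxn1 was called lower as well. The median of all genes tested was then -0.45 and -0.52, and 11280 and 10490 of all 25005 genes tested were called lower. The calls under these scalings that are given below for single genes are to be read against these counts.

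**Figure D1:**
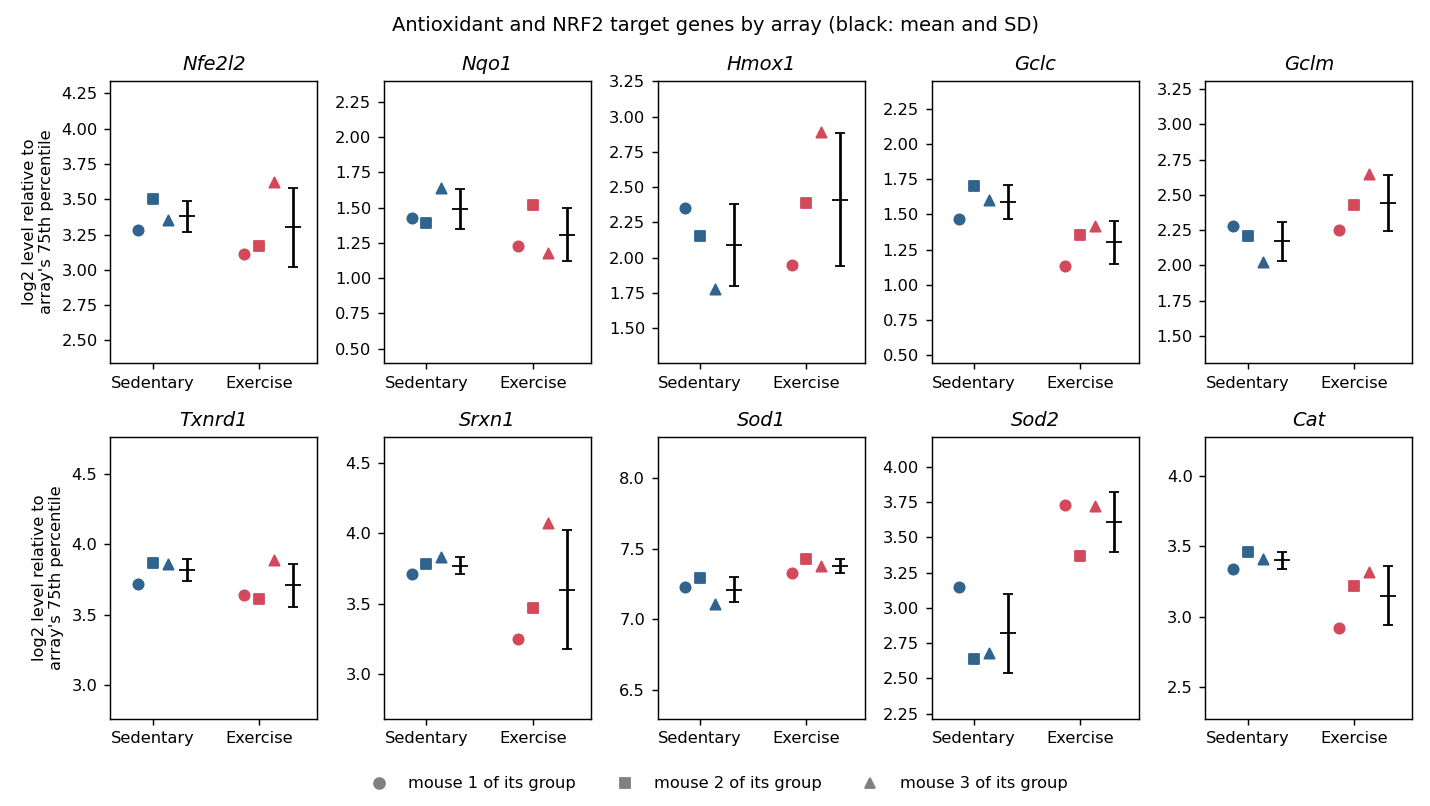
Level of each of the 10 genes on each array (log2 processed signal minus the array's 75th percentile, the same span of 2 log2 units in every panel), with 3 sedentary mice in blue and 3 mice of the exercise group in red, and the mean and SD of each group in black. In Sod2 the 3 exercise values (3.37 to 3.73) lie above the 3 sedentary values (2.64 to 3.15), and in Hmox1 and Srxn1 the exercise group spans more than the sedentary group.

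Sod2, the manganese superoxide dismutase of the mitochondrial matrix, had levels of 3.73, 3.37 and 3.72 in exercise mice 1 to 3 and of 3.15, 2.64 and 2.68 in sedentary mice 1 to 3. All exercise values lay above all sedentary values, as in 25% of all genes tested, and sedentary mouse 1 stood nearest to the exercise group. The difference was 0.79 (SE 0.18, 95% confidence interval 0.35 to 1.22, n = 3 per group), which is 1.72-fold (1.28 to 2.33), with an adjusted p of 0.0354 in limma. The exact permutation p was 0.1, the smallest that 3 against 3 arrays can give. Against sedentary mouse 1 alone, within 1 strip of the slide, the exercise mean was higher by 0.46, and with the strip as a block in limma the adjusted p was 0.261. With any 1 array other than sedentary mouse 1 left out, the difference stayed between 0.70 and 0.91 and did not pass the test, and no more than 1 gene over all genes tested did. Without sedentary mouse 1 it was 0.95 with an adjusted p of 0.0161. The groups then lie on different strips, so group and strip cannot be told apart in that fit.

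Sedentary mouse 1, the highest of the sedentary mice in Sod2, was also the highest of them in the muscle markers. The summed level of the 6 skeletal muscle genes was 11.26 in sedentary mouse 1 and 10.91 and 10.77 in sedentary mice 2 and 3, against 11.89, 11.82 and 12 in exercise mice 1 to 3. This was not particular to muscle. Sedentary mouse 1 was also the highest sedentary mouse for macrophages (6.78 against 6.67 and 6.56) and red blood cells (9.16 against 8.22 and 8.10). The same held for Schwann cells (5.91 against 5.72 and 5.51) and both fibre type lists. It did not hold for adipocytes (9.07 against 9.09 and 8.72) or endothelium (4.67 against 4.50 and 4.67). As Myh4 and Tnnt3 also stand in the fast-twitch list, the skeletal muscle sum does not separate fibre content from fibre type. Ttn, another of the 6, had a difference of 0.28 and was not called (adjusted p = 0.32 in limma). The part of muscle fibre content or fibre type in the Sod2 difference was not tested.

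Sod1, the copper and zinc superoxide dismutase of the cytosol, had levels of 7.33, 7.43 and 7.38 in the exercise group and of 7.23, 7.29 and 7.11 in the sedentary group. There was no overlap between them, but the gap between the nearest values was small and the difference of 0.17 (SE 0.09, interval -0.04 to 0.38) did not pass the test (adjusted p = 0.216). Its sign turned to negative with quantile normalization and without scaling between arrays (-0.18 and -0.31), so no direction is given for Sod1.

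Catalase had levels of 2.92, 3.22 and 3.32 in the exercise group and of 3.34, 3.46 and 3.41 in the sedentary group. All exercise values lay below all sedentary values, as in 18.2% of all genes tested, by a narrow margin for mouse 3 of the exercise group. The difference of -0.25 (SE 0.12, interval -0.55 to 0.05) did not pass the test (adjusted p = 0.201), and it was between -0.33 and -0.13 with 1 array left out. Cat was called lower without scaling between arrays (-0.72, adjusted p = 0.0167) and with spike-in scaling (-0.79, adjusted p = 0.0169). So were 11280 and 10490 of all 25005 genes tested, in this order. Groups without overlap, as in Sod1, Sod2, Cat and Gclc, were seen in 43.2% of all genes tested, and 4 of 10 (2 above and 2 below) is close to that share.

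Nfe2l2 itself had levels of 3.11, 3.17 and 3.62 in the exercise group and of 3.28, 3.50 and 3.35 in the sedentary group. The groups overlapped, and mouse 3 of the exercise group was the highest of all 6. The difference was -0.08 (SE 0.16, interval -0.46 to 0.30, adjusted p = 0.748), and it was called lower without scaling between arrays (-0.55) and with spike-in scaling (-0.62). A second, dimmer probe for a non-coding Nfe2l2 transcript had levels of -2.27, -1.21 and -1.81 in the exercise group and of -1.62, -0.62 and -1.29 in the sedentary group. In both groups mouse 2 was the highest on this probe. Its difference was -0.59 (SE 0.35, interval -1.43 to 0.26), which did not pass the test over all probes either, in which 16.2% of probes were called.

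**Figure D2:**
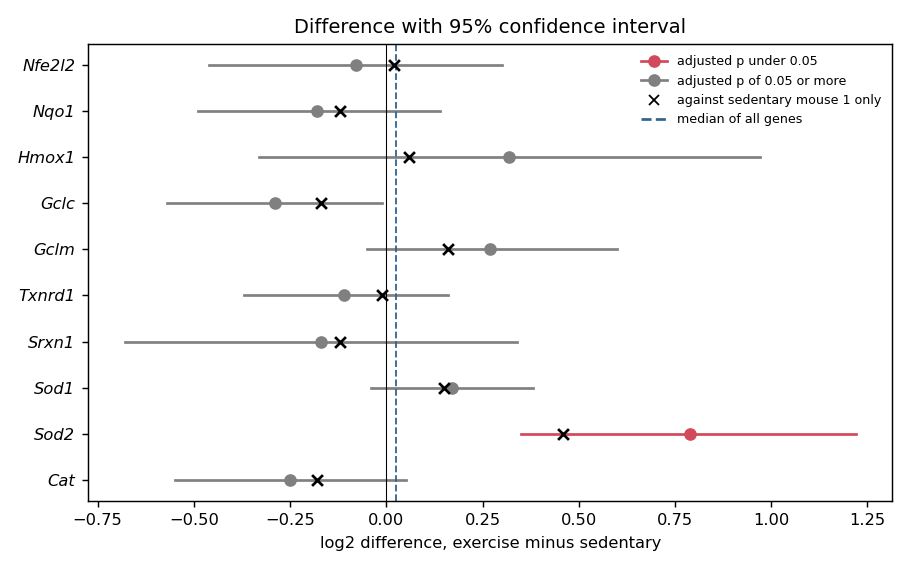
Difference between the groups for each of the 10 genes (points, log2, exercise minus sedentary) with its 95% confidence interval (lines), red where the adjusted p is under 0.05, with the exercise mean minus sedentary mouse 1 alone as crosses and the median of all genes tested (0.03) as a dashed line. The interval of Sod2 (0.35 to 1.22) lies above 0, that of Gclc (-0.57 to -0.01) just below 0, and the other 8 include 0.

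Gclc and Gclm encode the catalytic and the modifier subunit of glutamate-cysteine ligase, which carries out the first step of glutathione synthesis. Gclc had levels of 1.13, 1.35 and 1.42 in the exercise group and of 1.47, 1.70 and 1.6 in the sedentary group. All exercise values lay below all sedentary values, and the difference was -0.29 (SE 0.11, interval -0.57 to -0.01), with an unadjusted p of 0.0418 and an adjusted p of 0.121. Against sedentary mouse 1 alone it was -0.17, and without scaling it was -0.77 and called. Gclm had levels of 2.25, 2.43 and 2.65 in the exercise group and of 2.28, 2.21 and 2.02 in the sedentary group. The lowest exercise value fell within the sedentary range. The difference of Gclm was 0.27 (SE 0.13, interval -0.05 to 0.60, adjusted p = 0.188), and its sign turned to negative without scaling between arrays (-0.20) and with spike-in scaling (-0.27). The means of both subunits thus differed in opposite directions at the scaling used, with neither called, and a test of one subunit against the other was not made.

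Nqo1, the quinone reductase that is widely read as an NRF2 target, had levels of 1.23, 1.52 and 1.18 in the exercise group and of 1.43, 1.39 and 1.64 in the sedentary group. The groups overlapped and the difference was -0.18 (SE 0.13, interval -0.49 to 0.14, adjusted p = 0.361). Without scaling and with spike-in scaling Nqo1 was called lower (-0.65 and -0.72). With 1 array left out its difference was between -0.28 and -0.10.

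Txnrd1, the cytosolic thioredoxin reductase, had levels of 3.64, 3.61 and 3.89 in the exercise group and of 3.72, 3.87 and 3.86 in the sedentary group. Mouse 3 of the exercise group was again the highest of all 6. The difference was -0.11 (SE 0.11, interval -0.37 to 0.16, adjusted p = 0.511), and the second Txnrd1 probe also gave -0.11 (SE 0.09, interval -0.34 to 0.12). The first probe gave -0.20 to -0.05 with 1 array left out, and -0.58 without scaling and -0.65 with spike-in scaling, both called.

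Srxn1, or sulfiredoxin, repairs peroxiredoxins that were over-oxidized. Its levels were 3.25, 3.47 and 4.07 in the exercise group and 3.71, 3.78 and 3.83 in the sedentary group. The sedentary mice lay close together (SD 0.06), while the exercise mice stood on both sides of them (SD 0.42). The difference of the means was -0.17 (SE 0.21, interval -0.68 to 0.34, adjusted p = 0.578), and it was between -0.41 and 0.00 with 1 array left out. With spike-in scaling Srxn1 was called lower (-0.72).

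Hmox1, the inducible haem oxygenase, had levels of 1.95, 2.39 and 2.89 in the exercise group and of 2.35, 2.15 and 1.78 in the sedentary group. The groups overlapped, with exercise mouse 3 as the highest and exercise mouse 1 below 2 of the sedentary mice. The difference of 0.32 had the widest interval of the 10 genes (SE 0.27, interval -0.33 to 0.97, adjusted p = 0.423), and its sign turned to negative without scaling between arrays (-0.16) and with spike-in scaling (-0.22). With 1 array left out it was between 0.08 and 0.55, and with the strip block it was 0.06.

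Several of these genes varied among the exercise mice in the same order. Exercise mouse 3 was the highest and exercise mouse 1 the lowest of the exercise group in 6 of the 10 genes (Nfe2l2, Hmox1, Gclc, Gclm, Srxn1 and Cat), or 60%, against 14.1% of all genes tested and 21 of 82, or 25.6%, of the other antioxidant genes listed below. The genes are not independent of each other, and the order was noticed in these values, so it is given as a description without a test. Between exercise mice 3 and 1 the level differed by 0.94 in Hmox1 (1.92-fold), by 0.81 in Srxn1 (1.76-fold) and by 0.51 in Nfe2l2 (1.42-fold). It differed by 0.40 in Cat, 0.39 in Gclm, 0.29 in Gclc and 0.25 in Txnrd1. Txnrd1 was highest in mouse 3 but lowest in mouse 2, and Nqo1, Sod1 and Sod2 also did not follow the order, with differences between mice 3 and 1 of -0.06, 0.04 and -0.01. The median over the 10 genes was 0.34, against -0.02 over all genes tested, and it lay between 0.21 and 0.39 under the 7 scalings tried, with 4 to 7 of the 10 genes in this order.

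The SD was larger in the exercise group than in the sedentary group in 8 of the 10 genes, against 46.9% of all genes tested. Markers of adipocytes and of slow-twitch fibres mostly had the order of exercise mice described above, and the other marker lists mostly did not. It was seen in 0 of 10 fast-twitch fibre genes and 1 of 6 skeletal muscle markers. It was also seen in 0 of 6 endothelium markers and 0 of 6 Schwann cell markers. All 6 adipocyte markers were highest in exercise mouse 3 and lowest in exercise mouse 1 of that group, with a summed level of 7.89, 8.36 and 9.29 in exercise mice 1 to 3 and of 9.07, 9.09 and 8.72 in the sedentary mice. Of the 8 slow-twitch fibre genes, 6 had the same order in the exercise group. Of the 12 macrophage markers 1 followed it (summed level 6.70, 6.78 and 6.58 in exercise mice 1 to 3). Of the 4 red blood cell markers tested 0 followed it (8.83, 9.32 and 8.95). Alb, the only one of 3 liver markers tested, stood apart in exercise mouse 1, with 3.77 against -3.20 and -2.11 in exercise mice 2 and 3 and -1.61 to 0.63 in the sedentary mice. The part of fat cells, fibre types or other tissue in the order was not tested.

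**Figure D3:**
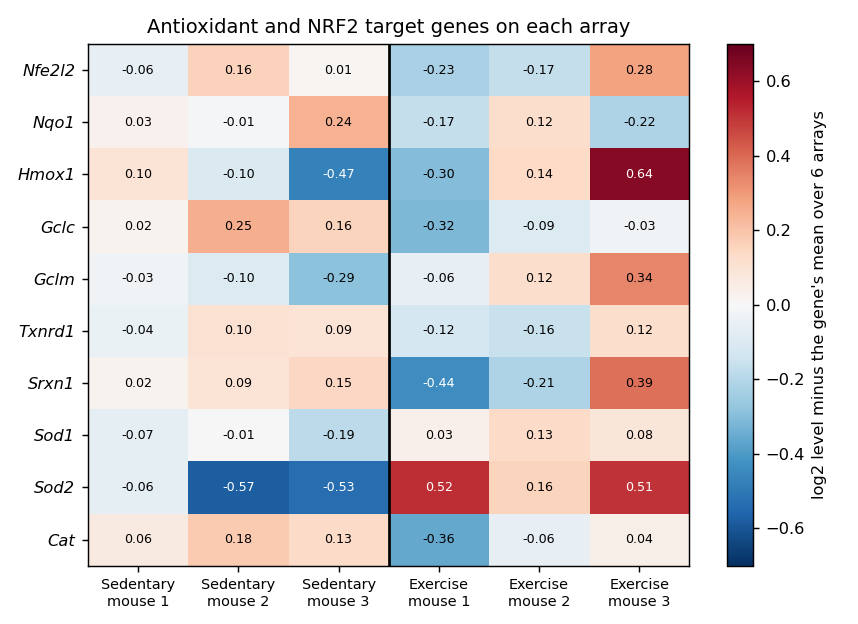
Level of each of the 10 genes on each array minus that gene's mean over the 6 arrays (log2, printed in each cell, red above and blue below the mean), with the sedentary mice left of the line and the exercise group right of it. The column of exercise mouse 3 is above the mean in 8 genes and that of exercise mouse 1 is below it in 8, whereas Sod2 is above its mean in all 3 exercise mice.

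Around the 10 genes, 84 other genes of antioxidant defence were listed in 11 functional groups, and 82 of them were tested. In the exercise group 15 were called higher and 3 lower, 22% of those tested against the 17.6% of all genes given above, and the median difference was 0.05 against 0.03. None reached an absolute log2 fold change of 1 with a call. With no scaling between arrays 5 of the 15 had a negative difference, and with spike-in scaling 7 of the 15 had one. These scalings moved the median of all genes tested to -0.45 and -0.52, and no alternative moved it above 0.18. The 3 called lower stayed negative under all alternatives. As the largest shifts were downward, this does not show that the lower calls are firmer than the higher ones. With the strip block, or with any 1 array other than sedentary mouse 1 left out, no gene of the list was called.

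**Figure D4:**
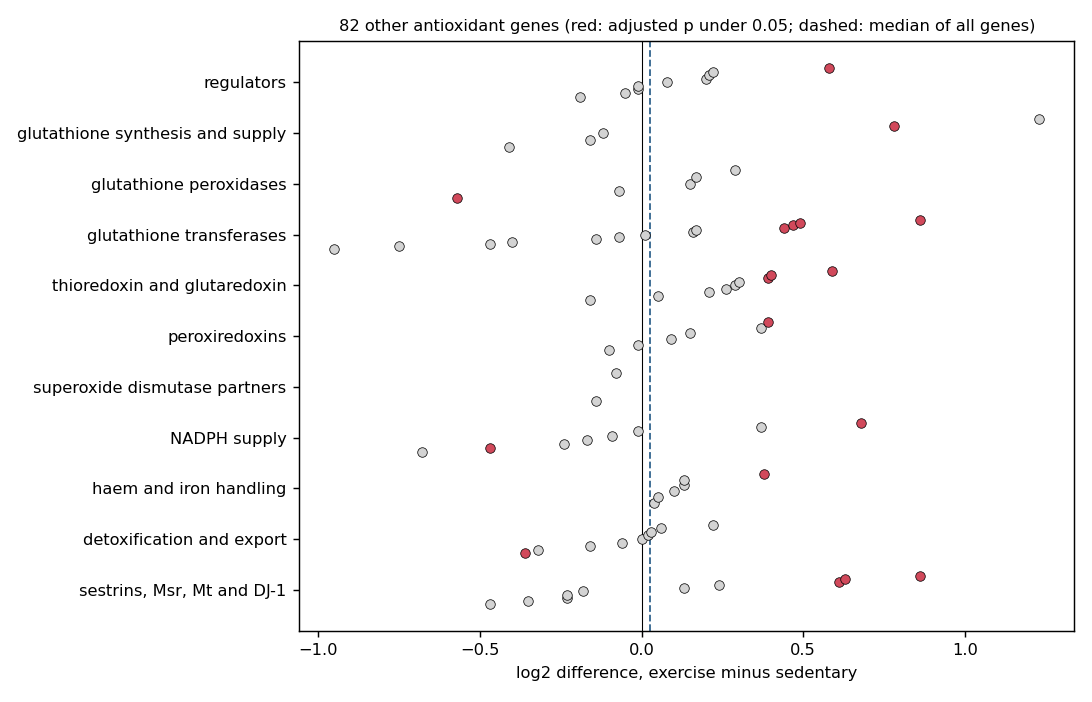
Difference between the groups (log2, exercise minus sedentary) of the 82 other antioxidant genes tested, 1 point per gene in rows by functional group (Msr, methionine sulfoxide reductases; Mt, metallothioneins; DJ-1, Park7), red where the adjusted p is under 0.05, with the median of all genes tested as a dashed line. Red points stand to the right of 0 in 15 genes and to the left in 3, and no red point is beyond 1 in either direction.

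Among the 9 regulators of NRF2, 1 (11.1%) was called, against 17.6% of all genes tested. Cul3, the scaffold of the ligase that marks NRF2 for degradation, rose by 0.58 (SE 0.13, adjusted p = 0.0347). Its levels were 2.03, 1.85 and 1.92 in the exercise group and 1.58, 1.16 and 1.33 in the sedentary group, without overlap. Without scaling the Cul3 difference was 0.10, and with spike-in scaling 0.03. Keap1, the adaptor that holds NRF2, had levels of 3.68, 3.68 and 3.70 in the exercise group and 3.63, 3.46 and 3.33 in the sedentary group. The Keap1 values of the exercise group lay above the others, but the difference of 0.21 (SE 0.10) did not pass the test (adjusted p = 0.179). The other 7 regulators did not pass it either. Their differences were 0.08 for Bach1 and -0.19 for Bach2, repressors that compete with NRF2 for its sites, and 0.22 for the related factor Nfe2l1. The small MAF partners Maff, Mafg and Mafk had 0.20, -0.01 and -0.01, and Sqstm1, whose protein draws KEAP1 into autophagy, had -0.05. Of the 9 regulators, 7 (Keap1, Bach1, Bach2, Nfe2l1, Maff, Mafg and Mafk) had their highest level in exercise mouse 3 and their lowest in exercise mouse 1 of that group, against the 14.1% of all genes given above, and Cul3 and Sqstm1 did not. Maff had 0.32 in exercise mouse 3 against -1.48 in exercise mouse 1, and Keap1 3.70 against 3.68. The regulators had the most genes in this order of all functional groups. It held in 4 of 13 glutathione transferases and 4 of 9 detoxification genes. In the NADPH supply it held in 1 of 8, and in 0 of 9 thioredoxin and glutaredoxin genes and 0 of 6 peroxiredoxins. This too was noticed in the values and is given without a test.

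In the supply of glutathione, 1 of 5 tested genes (20%) was called, near the 17.6% of all genes tested. Slc3a2, the heavy chain that the cystine carrier shares with other amino acid transporters, was higher by 0.78 on its brighter probe (SE 0.13, adjusted p = 0.0236). On that probe the levels were 4.35, 4.36 and 4.21 in the exercise group and 3.75, 3.45 and 3.37 in the sedentary group. A second Slc3a2 probe, for another transcript, gave -0.07 (SE 0.09), so the rise of Slc3a2 rests on 1 of its 2 probes. Slc7a11, the cystine carrier itself, and Ggt1 did not pass the filter on dim probes. Chac1, which degrades glutathione, was named after its values were seen. It was the most variable gene of the group, with levels of 2.72, 4.56 and 5.29 in the exercise group and of 4.38, 2.49 and 2.02 in the sedentary group, and it was not called (difference 1.23, SE 0.85, adjusted p = 0.333).

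Of the glutathione-using enzymes, 1 of 5 peroxidases (20%) and 4 of 13 transferases (30.8%) were called, against 17.6% of all genes tested. Gpx8, a peroxidase of the endoplasmic reticulum, fell by 0.57 (SE 0.13, adjusted p = 0.0341), from 2.96, 3.14 and 3.31 in the sedentary group to 2.57, 2.42 and 2.71 in the exercise group. The 4 transferases called were all higher, and Gstp1 had the smallest adjusted p of them, with 0.49 (SE 0.09, adjusted p = 0.0249). Gstp1 levels were 4.52, 4.50 and 4.39 against 3.95, 4.07 and 3.92, and the difference was 0.02 without scaling and -0.05 with spike-in scaling.

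In the thioredoxin and glutaredoxin group 8 of 9 genes had a positive difference, against 52.9% of all genes tested, and 3 (33.3%) were called, all higher, against 11.5% of all genes tested. Without scaling 1 of the 9 had a positive difference, as had 3340 of all 25005 genes tested. Txn2, the mitochondrial thioredoxin, rose by 0.39 (SE 0.08, adjusted p = 0.0276), with levels of 6.33, 6.25 and 6.32 in the exercise group and of 5.95, 5.89 and 5.88 in the sedentary group. Of 6 peroxiredoxins, 1 (16.7%) was called, near the 17.6% of all genes tested. It was Prdx5, which acts in mitochondria, peroxisomes and the cytosol, with 0.39 (SE 0.08, adjusted p = 0.0277). The Prdx5 levels were 6.87, 6.86 and 6.80 against 6.50, 6.44 and 6.41. The differences of Txn2 and Prdx5 were both -0.08 without scaling and -0.15 with spike-in scaling. Neither of the superoxide dismutase partners, extracellular Sod3 (-0.14) and the copper chaperone Ccs (-0.08), was called.

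The supply of NADPH, which drives the reductases, held 1 call in each direction among 8 genes (25%), against 17.6% of all genes tested. Me1, the cytosolic malic enzyme, rose by 0.68 (SE 0.12, adjusted p = 0.0243), from 4.77, 4.57 and 4.37 in the sedentary group to 5.27, 5.19 and 5.28 in the exercise group. Pgd, the third enzyme of the pentose phosphate pathway, fell by 0.47 (SE 0.11, adjusted p = 0.0406), from 2.17, 2.28 and 2.49 to 1.91, 1.72 and 1.88. Both kept their sign under all alternatives, Me1 between 0.14 and 0.78 and Pgd between -1.01 and -0.33. The largest shifts of all genes tested were downward, so a kept sign says less for Pgd than for Me1. Idh1 had probes of opposite sign (-0.09 and 0.17), neither called.

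In haem and iron handling all 6 genes had a positive difference, from 0.04 to 0.38, against 52.9% of all genes tested. Without scaling none of the 6 had one, and 3340 of all 25005 genes tested did. Of the 6, 1 (16.7%) was called, near the 17.6% of all genes tested. Slc48a1, which carries haem out of lysosomes, was higher by 0.38 (SE 0.09, adjusted p = 0.0393), but a second probe for the same transcript gave -0.01 (SE 0.12). The levels of the called Slc48a1 probe were 2.25, 2.47 and 2.44 against 1.99, 2.00 and 2.03, and those of the other probe were 1.89, 2.22 and 2.06 against 2.15, 2.15 and 1.91. The rise of Slc48a1 was thus not seen on both probes. Hmox2, the constitutive haem oxygenase, had 0.04 and -0.05 on its 2 probes.

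Among the 9 detoxification and export genes, 1 (11.1%) was called, against 17.6% of all genes tested. Abcc4, an efflux pump of organic anions, fell by 0.36 (SE 0.09, adjusted p = 0.0424), from 0.98, 0.85 and 0.98 to 0.49, 0.61 and 0.64. In the last group, of sestrins, methionine sulfoxide reductases, metallothioneins and DJ-1, 3 of 10 genes (30%) were called, all higher, against 11.5% of all genes tested called higher. Park7, which encodes DJ-1, a protein that senses oxidants, had the smallest adjusted p of the whole list, with a rise of 0.61 (SE 0.08, adjusted p = 0.0234). Its levels were 7.84, 7.87 and 7.93 in the exercise group and 7.34, 7.30 and 7.18 in the sedentary group, and the difference was 0.13 without scaling and 0.06 with spike-in scaling.

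The core of the antioxidant response element stood in 19.6% of the 102 promoter windows found for the wider list, against 12.4% of all windows.

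**Figure D5:**
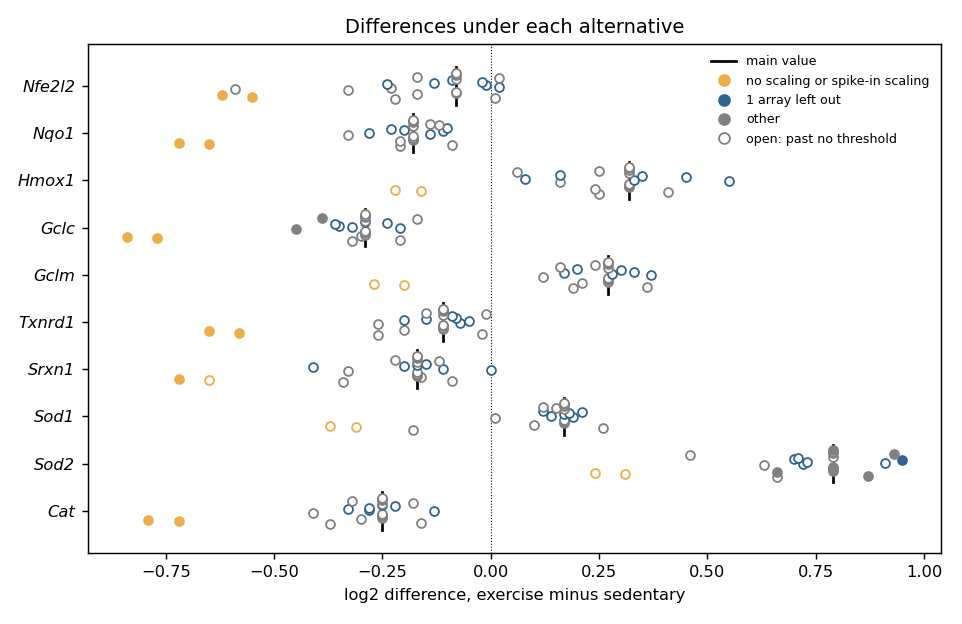
Difference of each of the 10 genes (log2, exercise minus sedentary) under the 22 alternative ways of processing or testing, 1 point each, filled where the gene passed the test, with the main value as a black line. Sod2 lies between 0.24 and 0.95 and is positive in all 22, and without scaling or with spike-in scaling (orange) the other genes are all negative.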

How the data were processed

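RNA from the quadriceps of 6 mice was hybridized to Agilent SurePrint G3 mouse arrays, and the authors deposited 1 scanner file per array from Feature Extraction 12.1.0.3. The processed signal used here is an intensity per spot, from which the authors' software had subtracted the background, and the deposited table of values is the same intensity times 1 factor per array (1.33 to 1.88). Signals can therefore be compared between arrays only after scaling. Control spots (3671 of 62976) and outlier spots were removed, replicate spots averaged, and 22 probes with a missing value dropped. The log2 signal minus each array's 75th percentile was taken. Of 56605 probes, the 32726 that were well above background on 3 or more arrays were kept, and the probe with the highest mean stood for a gene. Probes were named through RefSeq (GRCm38.p6) transcript accessions, with 34566 matched. The comparison used limma 3.58.1 under R 4.3.3 (two-sided, Benjamini-Hochberg over 25005 genes and transcripts, no covariates), after the steps had been tested on simulated data. The number of arrays limits the precision. The 10 genes and all lists were chosen with earlier results of these data known. Named from the wider list were, per functional group and direction, the called gene with the smallest adjusted p, all regulators, and genes whose probes disagreed in sign. Chac1, Sod3, Ccs, Slc7a11 and Ggt1 were named outside this rule, after the values were seen. The alternatives comprised other scalings, background correction, filters, probe summaries, blocks, tests and thresholds, and each array left out in turn.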

Additional observations from a re-analysis of the deposited data

How the results depend on the processing

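Sod2 stayed higher in the exercise group under all 22 alternatives (0.24 to 0.95) and passed the test in 10. It did not pass with quantile normalization (0.66), no scaling (0.31), spike-in scaling (0.24), the deposited table (0.63), the strip block (0.46), the replicate block (0.79) or the methods' t-test (0.79), nor with any array but sedentary mouse 1 left out (0.70 to 0.91). The sign turned for Sod1 with quantile normalization, no scaling and spike-in scaling (-0.18, -0.31 and -0.37), for Hmox1 (-0.16 and -0.22) and Gclm (-0.20 and -0.27) with the last 2 of these, and for Nfe2l2 with the array median (0.01), the strip block (0.02) and without exercise mouse 1 (-0.24 to 0.02 with 1 array left out). No scaling and spike-in scaling (on 7 probes) moved the median of all genes to -0.45 and -0.52, the deposited table to -0.13, the array median to 0.11 and no filter to 0.18. The cause was not tested.

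Genes called higher and lower over all genes, 2868 and 1530 in the main test, were 4617 and 3084 at an adjusted p under 0.1, 5124 and 3627 with array weights, 1172 and 3201 in the deposited table, 617 and 11280 without scaling, 333 and 10490 with spike-in scaling, 438 and 204 with the methods' t-test, and 0 and 3 with the strip block. Higher calls were 9741 without a filter, 6169 with normexp and 1864 with quantile normalization, and lower calls 875 with the array median. Lower calls made up 34.8% of all calls in the main test, 94.8% without scaling, 96.9% with spike-in scaling, 73.2% in the deposited table, 24.6% with the array median and with normexp, and 16.5% without a filter. With 1 array left out, 0 to 3476 were higher and 0 to 2060 lower. The only array whose loss kept calls above 1 was sedentary mouse 1, and without it group and strip cannot be told apart.

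Of the 10 genes, 1 was called higher and 0 lower in the main test. The number called higher was 0 where Sod2 was not called (0 to 1 with 1 array left out). The number called lower was 5 without scaling, 6 with spike-in scaling, and 1 in the deposited table and with array weights, in both cases Gclc (-0.45 and -0.39), and 0 with every array left out. Of the wider list, 15 were called higher and 3 lower. These were 6 and 11 in the deposited table, 1 and 38 without scaling, 0 and 35 with spike-in scaling, 5 and 5 with quantile normalization, 4 and 0 with the t-test, 0 and 0 with the strip block, and 0 to 14 and 0 to 6 with 1 array left out. Lower calls were 10 at an adjusted p under 0.1, 12 with array weights, 8 with trend and robust, 12 with normexp and 1 with the array median.

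With the replicate number as a block, 0 genes were called higher and 0 lower (4969 and 3622 at an unadjusted p under 0.05 in limma), 0 of the 10 genes and 0 and 0 of the wider list. The labels name no pairs of mice. Deviations of same-numbered mice correlated at 0.02, 0.08 and 0.04, and those of differently numbered mice at -0.11 to 0.07. With 3 mice per group such values cannot tell whether the mice were paired. Signal over background did not limit the 10 genes, whose probes were well above background on all arrays.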
